A study of Homo sapiens with 2 samples.

Results

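The contacts described here are the long-range METTL3 HiChIP contacts that were listed in both proliferating and senescent fibroblasts. A contact of the control library was taken when it lay on an autosome, when the midpoints of its anchors were at least 100 kb apart, and when a contact of the senescent library had anchors that each overlapped the control anchors by at least 1 bp. Of 12194 autosomal control contacts, 5688 spanned at least 100 kb, and 333 of these had such a counterpart. The counterparts were 324 of the 149258 autosomal senescent contacts. The rule used the positions of the contacts in both libraries, so the number kept and the spans are a description and no test was made on them.

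The study measured 1 library of control cells and 1 library of senescent cells. Both were from IMR90, a line of diploid fibroblasts from human embryonic lung, with the genotype given as WT, grown under low oxygen. The senescent cells were made with H-RASG12V, an oncogenic form of RAS, fused to the estrogen receptor so that it could be induced. The sources used here do not give the inducer, the length of induction, or whether the control cells carried the uninduced fusion. A single library per group leaves no replicate spread, so no p-value is given; the 95% intervals printed here allow for counting error alone.

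METTL3 is the catalytic subunit of the complex that methylates adenosines in RNA, and it can be found on chromatin while RNA is being made. HiChIP cuts fixed chromatin with a restriction enzyme, here MboI, ligates the ends of neighbouring fragments to each other, and enriches the joined fragments by immunoprecipitation. Each contact is a pair of genomic intervals, called anchors, with a count of the paired-end tags (PETs) linking them. In mammalian cells contacts become rarer as the distance along the chromosome grows, and those beyond 100 kb often join genes with distant regulatory elements or the edges of the domains into which chromosomes fold.

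The deposited tables carry no sequence. As background, the RefSeq promoter windows of 3 genes at anchors described below are printed: VIM on chromosome 10, CAV1 on chromosome 7 and CCN2 on chromosome 6. These were picked by hand and do not stand for the member anchors, because anchors at promoters were not counted. All 3 gene names had an entry in the RefSeq table, and for CAV1, with 3 listed starts, the first is shown. The windows run from 250 bases before to 50 after the start, 5′ to 3′ on the gene's strand, and their positions are in GRCh38.p14, not in the hg19 of the contacts. Capitals mark GATC, the MboI site, and GGAATG or its reverse CATTCC, a core recognised by TEAD factors; both strands were searched, and no base belonged to both motifs.
VIM, chr10:17227991-17228290, + strand: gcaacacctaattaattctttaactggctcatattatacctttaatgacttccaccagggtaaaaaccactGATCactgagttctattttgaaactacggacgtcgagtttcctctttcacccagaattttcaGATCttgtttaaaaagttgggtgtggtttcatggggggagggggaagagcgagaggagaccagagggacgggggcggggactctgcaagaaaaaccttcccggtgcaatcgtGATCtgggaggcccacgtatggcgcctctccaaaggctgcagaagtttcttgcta
CAV1, chr7:116524759-116525058, + strand: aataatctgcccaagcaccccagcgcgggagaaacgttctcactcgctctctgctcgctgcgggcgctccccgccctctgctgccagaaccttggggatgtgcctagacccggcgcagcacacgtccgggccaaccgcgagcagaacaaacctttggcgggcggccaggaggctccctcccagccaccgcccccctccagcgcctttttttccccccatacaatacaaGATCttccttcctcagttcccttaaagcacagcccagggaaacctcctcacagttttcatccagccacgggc
CCN2, chr6:131951323-131951622, - strand: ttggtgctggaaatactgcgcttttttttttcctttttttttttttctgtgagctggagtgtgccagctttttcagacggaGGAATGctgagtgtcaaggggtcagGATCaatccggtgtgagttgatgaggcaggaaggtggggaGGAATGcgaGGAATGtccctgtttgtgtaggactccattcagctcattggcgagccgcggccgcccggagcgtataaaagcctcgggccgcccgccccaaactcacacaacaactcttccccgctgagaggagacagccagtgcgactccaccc
The VIM window held 3 GATC sites, and the CAV1 and CCN2 windows held 1 each. GATC was present in 41.7% of the 35116 promoter windows of this length. GGAATG was found 3 times in the CCN2 window and not in the others, and 14.03% of all windows held it on either strand. These matches describe the letters of the windows and not sites of binding or ligation.

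Few of the long control contacts were kept. The 333 made up 5.85% of the control contacts of at least 100 kb (5.26 to 6.496%, exact Clopper-Pearson interval), against 16.6% of control contacts of any span and 26% of those under 100 kb. From the other side, 326 of the 73810 senescent contacts of at least 100 kb (0.442%, 0.395 to 0.492%) matched a control contact of any span. The senescent table is far larger than the control table, so the shares of the tables are not comparable with each other. A contact could be kept only where both of its anchors were senescent anchors. This held for 2960 of the long control contacts (52.04%), while 2166 (38.1%) had 1 anchor listed in the senescent library and 562 (9.88%) had none. Among the 2960, 11.25% were kept (10.1 to 12.4%), against 44.6% (43.00 to 46.2%) of the contacts under 100 kb whose anchors were both listed. The other 2627 contacts had both sites listed again, but with other partners. Long and short contacts also differed in the significance value deposited with them. It was under 0.05 for every long control contact, but for only 204 of the 1691 kept contacts under 100 kb (12.1%).

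The share kept fell with distance within the long contacts as well. Between 100 and 200 kb, 182 of 1792 control contacts were kept (10.2%, 8.80 to 11.6%). The share was 5.53% (4.604 to 6.58%) from 200 to 500 kb, with 119 kept of 2151, and 2.63% (1.75 to 3.77%) from 500 to 1000 kb, with 28 kept of 1066. Beyond 1000 kb only 4 of 679 were kept (0.589%, 0.161 to 1.501%). The listing of anchors changed little over the same classes: both anchors were listed for 54.4%, 53.4%, 48.6% and 46.8% of the contacts. Among contacts with both anchors listed, the share kept was 18.7% (16.3 to 21.3%) in the nearest class and 1.26% (0.344 to 3.19%) in the farthest. Distance chose the members, so these shares describe them and are not tests.

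**Figure D1:**
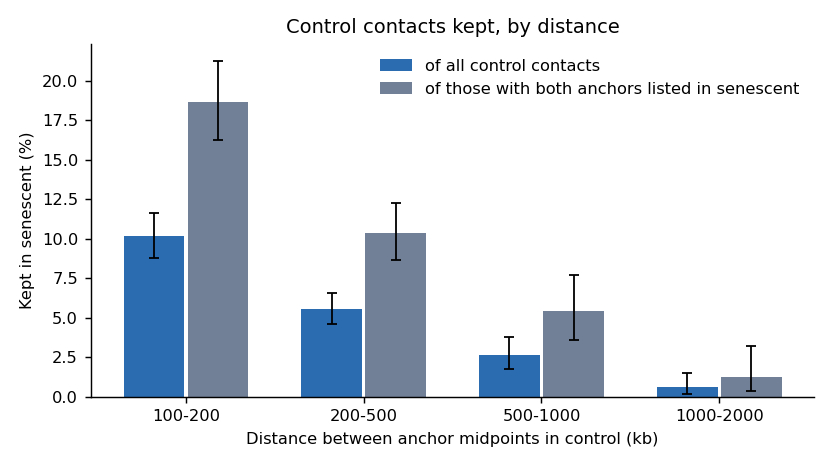
Share of autosomal control contacts with a senescent counterpart (y axis, %) in 4 classes of distance between anchor midpoints (x axis, kb), over all control contacts (blue) and over those with both anchors listed in the senescent library (grey). Bars start at 0 and error bars are exact 95% binomial intervals; the share falls from 10.2% to 0.589% over all contacts and from 18.7% to 1.26% over those with both anchors listed.

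The kept contacts were the shorter ones among the long. Their median span was 188 kb (171 to 202 kb, order-statistic interval), with quartiles of 134 and 292 kb, while the 5355 long control contacts that were not kept had a median of 311 kb. All long senescent contacts had a median of 321 kb. Spans ran from 100.4 to 1947 kb. At the lower limit, the members just inside were on chromosome 17 at 64460185 to 64466583 and 64562310 to 64565254 (100.4 kb) and on chromosome 7 at 92323327 to 92330475 and 92426296 to 92428566 (100.5 kb). Kept contacts just outside it, both on chromosome 2, spanned 99.8 and 99.7 kb from 1634477 and 102743528. The span in the senescent library differed from that in the control library by a median of 1.67 kb and by at most 20.002 kb, a range that the required overlap limits. A single counterpart, on chromosome 22, spanned less than 100 kb (96.4 kb).

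Most kept contacts rested on 1 PET in each library. This was so for 245 of the 333 (73.6%, 68.5 to 78.2%). At least 2 control PETs were found in 36 (10.8%, 7.69 to 14.7%), against 3.51% (3.03 to 4.04%) of the long control contacts that were not kept. The difference was present at like distance: from 100 to 200 kb, 14.3% of kept contacts (9.55 to 20.2%) and 5.40% of those not kept (4.35 to 6.62%) had at least 2 PETs. From 200 to 500 kb the shares were 7.56% (3.52 to 13.9%) and 4.18% (3.35 to 5.15%), with overlapping intervals. Put the other way, 36 of the 224 long control contacts with at least 2 PETs were kept (16.1%, 11.5 to 21.5%) and 297 of the 5464 with 1 PET (5.44%, 4.85 to 6.07%). Of the matched senescent contacts, 55 of 324 (17.0%, 13.05 to 21.5%) had at least 2 PETs, against 4.14% (3.99 to 4.28%) of all senescent contacts of at least 100 kb. This comparison was not made at like distance or width. The counterparts had a median span of 188 kb against 321 kb, and median anchors of 5.21 kb against 3.03 kb. Listing in a table depends on PETs, so these shares are tied to the rule, and no test was made.

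The members summed to 378 control PETs and 396 senescent PETs, which is 1.05 senescent PETs per control PET before any scaling (0.908 to 1.21, exact conditional binomial interval). Over all contacts of at least 100 kb the same ratio was 13.03 (5935 and 77314 PETs). The members were picked by listing in both tables, most with the smallest count a table can hold, so that a ratio near 1 does not show equal contact frequency. PETs were equal for 252 members (75.7%), higher in the senescent library for 53 and higher in the control library for 28. At least 2 PETs in both libraries were found for 10 members (3.00%, 1.45 to 5.45%). No member had more than 4 control PETs or 6 senescent PETs.

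**Figure D2:**
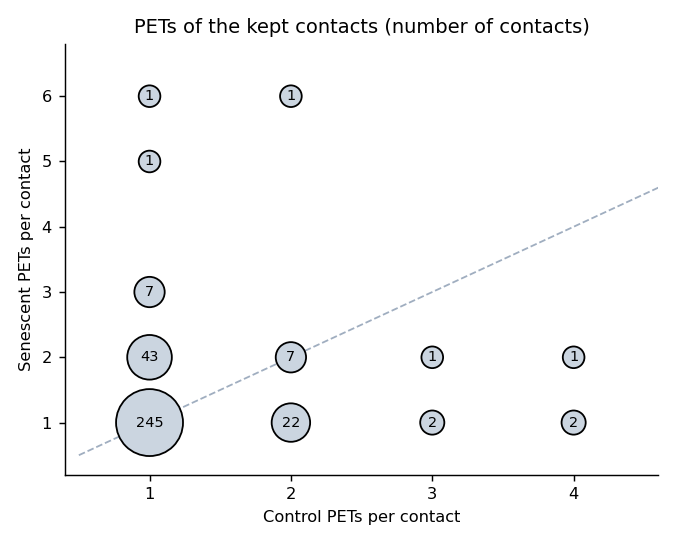
PETs of each kept contact in the control library (x axis) and summed over its counterparts in the senescent library (y axis); each circle is labelled with the number of contacts at that pair of values and the dashed line marks equal PETs. The circle at 1 PET in each library holds 245 of the 333 contacts, and 10 contacts have at least 2 PETs in both.

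The kept contacts had wide anchors, most of all in the senescent library. The 589 distinct control anchors of the members had a median width of 3.101 kb (2.96 to 3.19 kb), against 2.77 kb (2.75 to 2.80 kb) for the long contacts not kept and 2.87 kb (2.83 to 2.90 kb) for those not kept with both anchors listed. The senescent anchors of the counterparts had a median of 5.21 kb (4.95 to 5.65 kb), against 3.03 kb (3.02 to 3.05 kb) for the anchors of all long senescent contacts. A senescent anchor was a median of 1.57 times as wide as the control anchor it overlapped. In 482 of 666 cases (72.4%) it was the wider, and in 461 (69.2%) it contained the whole control anchor. Both control anchors lay within the senescent anchors for 165 members (49.5%), and 55 anchors (8.26%) had the same coordinates in both libraries. A wide anchor overlaps others more readily, so width and the rule cannot be told apart here. When the long control contacts were put into 4 classes of equal size by their narrower anchor, the share kept was 5.15%, 4.84% and 5.204% in the lower 3. It was 8.22% (6.84 to 9.77%) in the widest class, from 2.91 kb upwards. Among contacts with both anchors listed, the shares were 10.7%, 9.35% and 10.6%, and 13.9% (11.6 to 16.4%) in the widest class. The intervals of these shares overlapped.

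**Figure D3:**
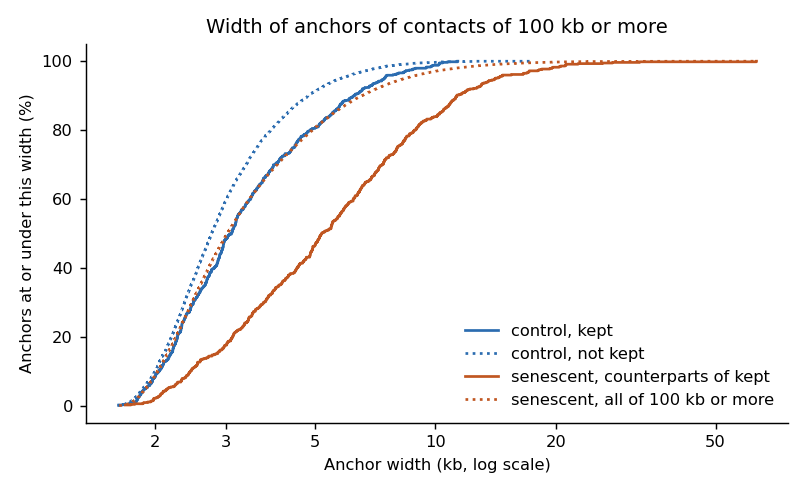
Cumulative share of distinct anchors (y axis, %) at or under a given width (x axis, kb, log scale) for contacts of at least 100 kb: control contacts that were kept (solid blue) and not kept (dotted blue), senescent counterparts (solid orange) and all senescent contacts (dotted orange). For a member with several counterparts the one with the most PETs is drawn; the counterparts' anchors lie to the right of the other curves, with a median of 5.21 kb over all counterparts against 3.101 kb for the kept control anchors.

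Up to 500 kb, the stretches that members spanned held more contacts at the median than those of other long contacts, with a gap clear of the intervals for 1 of 4 comparisons, the senescent contacts from 200 to 500 kb. For spans of 100 to 200 kb, the stretch from one anchor to the other held a median of 3 other control contacts (2 to 4) and 9 other senescent contacts (6 to 11). Long control contacts that were not kept although both anchors were listed held 2 (2 to 2) and 7 (6 to 7). For 200 to 500 kb the medians were 6 (4 to 9) and 22 (18 to 28) for members, and 4 (4 to 4) and 16 (15 to 17) for the others. From 500 to 1000 kb the 28 members held 4.5 (3 to 16) and 37.5 (20 to 57), with intervals that included the 7 and 33.5 of the others. Of the members of 100 to 200 kb, 20.3% (14.7 to 26.9%) spanned no other control contact. The share was 27.9% (25.7 to 30.1%) of all 1610 contacts not kept, whether or not both anchors were listed, with overlapping intervals. The anchors of a member ended a median of 4 other control contacts in all (4 to 5), against 4 (3 to 4) for the long contacts not kept whose anchors were both listed.

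Members came from 21 of the 22 autosomes. Chromosome 1 held 40, chromosome 2 held 35, chromosome 10 held 30, chromosome 6 held 29 and chromosome 7 held 26. Relative to the long control contacts of each chromosome, the share kept was highest on chromosome 10 (9.84%, 6.74 to 13.7%) and on chromosome 17 (9.68%, 4.52 to 17.6%). It was lowest, among chromosomes with members, on chromosome 4 (2.75%, 1.43 to 4.75%) and chromosome 3 (3.58%, 1.97 to 5.93%). The interval of chromosome 10 lay above the share over all autosomes and that of chromosome 4 below it. Among contacts with both anchors listed, chromosome 10 still lay above the 11.25% over all autosomes (17.96%, 12.46 to 24.64%). The interval of chromosome 4 then included that share (6.63%, 3.472 to 11.29%). These intervals treat members as independent, but chromosome 10 held stretches of 7, 5 and 5 members. With 22 autosomes, some 95% intervals can miss the share over all autosomes by counting error alone. Chromosome 19 held no member. Its control contacts of at least 100 kb numbered only 14, all with both anchors listed, so that the exact interval reaches up to 23.2%, and a lower share there was not detectable at this depth.

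**Figure D4:**
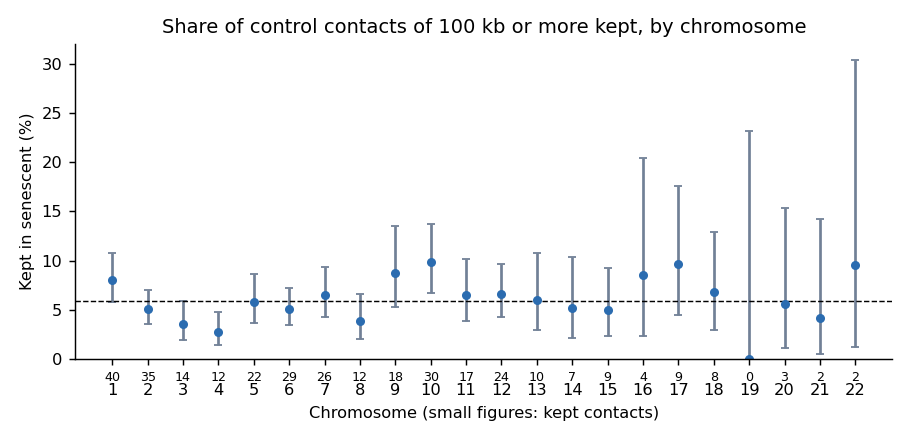
Share of control contacts of at least 100 kb that were kept (y axis, %) on each autosome (x axis); points are shares, bars are exact 95% binomial intervals, small figures give the number of kept contacts, and the dashed line is the 5.85% over all autosomes. Intervals are wide on chromosomes 16, 19, 20, 21 and 22, which had few long control contacts.

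Most members stood alone, and a minority shared sites. When members with overlapping anchors were joined, they formed 259 loci, of which 217 held 1 member and 42 held 2 to 6, with 116 members (34.8%) in the latter. The same grouping was not computed for the long contacts that were not kept. Of the 589 control anchors, 528 belonged to 1 member, 46 to 2, 14 to 3 and 1 to 4. When members were instead joined wherever the stretches they spanned overlapped, there were 218 stretches, 16 of them with at least 4 members. In the senescent library 12 contacts were each matched by 2 members, so 22 members did not have a senescent contact of their own. Gene names below come from general knowledge of where genes lie in hg19 and were given after the coordinates were seen. They were not checked against an annotation of that build, so no distance to a gene's start is given and genes are not counted. Neither METTL3 binding at these anchors nor transcription of the genes was measured in these tables.

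The locus with the most members lay on chromosome 10 from 16932794 to 17271807, at VIM. VIM encodes vimentin, the intermediate filament protein of fibroblasts and other mesenchymal cells, and its neighbour CUBN encodes cubilin, an endocytic receptor of kidney and gut. The locus held 6 members between 6 anchors, with 10 control PETs and 7 senescent PETs, and a further member lay inside it. The strongest joined 17063823 to 17074000, in CUBN, with 17254666 to 17262175, beside VIM, over 190 kb, with 3 control PETs and 2 senescent PETs. The anchor at 17269070 to 17271807, where VIM starts (window printed above), was joined to 3 distant anchors over 261, 202 and 166 kb, each with 1 PET in each library. All 3 of those partners lay within the CUBN side of the locus. Within the whole locus the control library listed 31 contacts with 45 PETs and the senescent library 37 contacts with 59 PETs. The locus was named for its number of members, and each member needs a control contact. These counts are therefore tied to the choice of the locus and are not set against the tables as a whole.

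On chromosome 7, 6 members lay between 115897804 and 116218921, the stretch of TES, CAV2 and CAV1. TES encodes testin, a LIM-domain protein of focal adhesions, and CAV1 and CAV2 encode caveolins, the coat proteins of membrane caveolae. The member with the most control PETs of any, equal with 2 others, joined 115905447 to 115913863, beside the end of TES, to 116163012 to 116165932, at the start of CAV1. It spanned 255 kb and had 4 control PETs and 2 senescent PETs, the latter from 2 senescent contacts. A neighbouring member from the same TES anchor reached 116166692 to 116170396 with 1 control PET and matched the same senescent contacts. An anchor at 115966216 to 115970817 had 3 member partners, at 116 kb, 170 kb and 249 kb, each with 1 PET in each library. This was 1 of 33 stretches, of the 218, in which the control library listed more contacts than the senescent library. It had 67 control contacts with 90 PETs and 50 senescent contacts with 63 PETs.

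**Figure D5:**
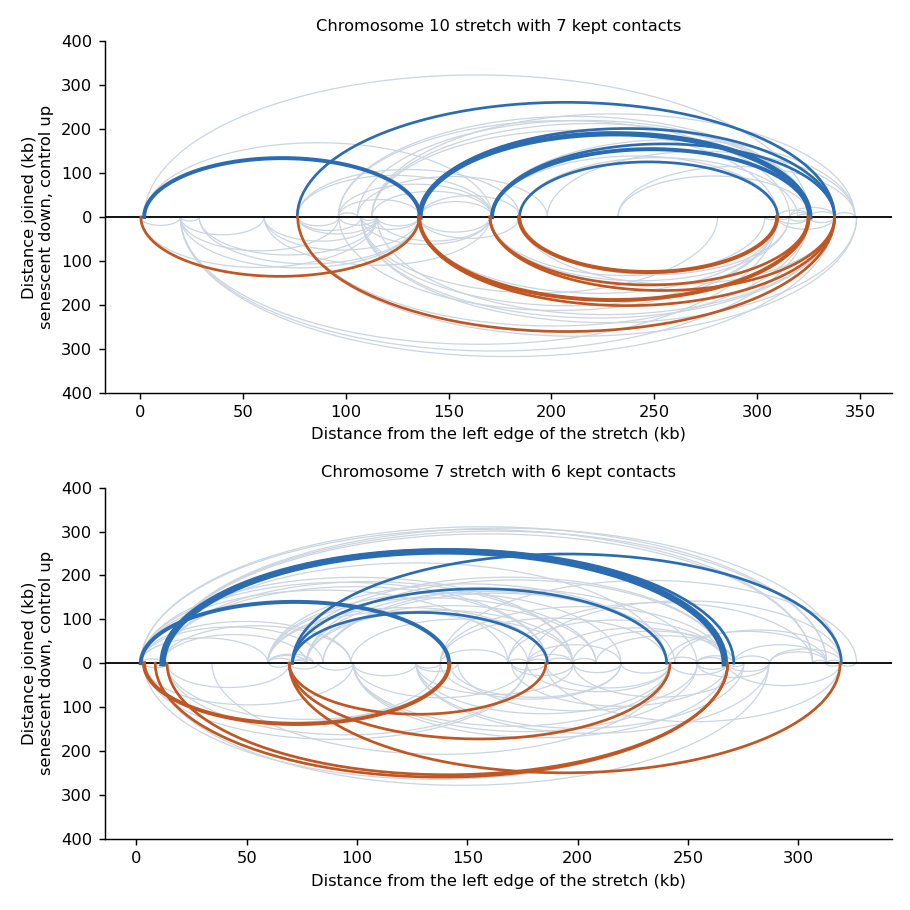
Contacts of the control library (arcs above the line) and of the senescent library (below) in the chromosome 10 stretch at VIM (top) and the chromosome 7 stretch at TES and CAV1 (bottom), by distance from the left edge of the stretch (x axis, kb); arc height is the distance joined (y axis, kb), and contacts with midpoints up to 10 kb outside are drawn. Coloured arcs are members (blue) and their senescent counterparts (orange), with line width growing with PETs; grey arcs are all other contacts. The 7 members at VIM and the 6 at TES and CAV1 have counterparts of like shape below the line, because the rule requires their anchors to overlap.

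Members were also found at or near genes of the matrix and of cell adhesion. The member with the most PETs over both libraries, 2 in control and 6 in senescent, joined 110898433 to 110909156 and 111046177 to 111050672 on chromosome 13, 145 kb apart. These anchors lie in COL4A1 and COL4A2, which encode the main chains of basement membrane collagen IV and are read in opposite directions from a shared start region between the anchors. That stretch held 3 members, and all its contacts had 21 control PETs and 115 senescent PETs. Over all autosomal contacts the sums were 14343 and 182707, so the larger senescent sum is not particular to this stretch. On chromosome 2, 5 members lay between 238085653 and 238324213, a stretch whose right part holds COL6A3, the gene of a collagen VI chain. Only the member joining 238198967 to 238203676 with 238322251 to 238324213 had an anchor in that part. The anchors of the others ended by 238214938, so they are beside the gene and not at it. The 5 members spanned 104 to 127 kb, and their 5 control PETs stood against 6 senescent PETs. A further stretch of chromosome 2, from 216261842 to 216660135, held 4 members, each with 1 PET in each library. Its left part holds FN1, which encodes fibronectin. The member joining 216390586 to 216397559 with 216614690 to 216617731 had no anchor at the gene. On chromosome 5 the stretch from 52130571 to 52660302, at the integrin genes ITGA1 and ITGA2, held 4 members with 4 control PETs and 3 senescent PETs. The integrins they encode are collagen receptors.

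Genes for secreted matrix-associated signals were touched as well. On chromosome 6 a member joined 132267827 to 132277680, at CCN2, to 132379201 to 132386548 over 110 kb, with 3 control PETs and 1 senescent PET. CCN2 encodes a matricellular growth factor, and its promoter window with 3 TEAD cores is printed above. On chromosome 1, 3 members crossed DDAH1 to the surroundings of CCN1, a relative of CCN2, between 85778863 and 86079766, with 3 control PETs and 4 senescent PETs. On chromosome 15, 3 members shared the anchor 39415988 to 39421863, and the longest of them, 470 kb, reached 39883819 to 39893309 at THBS1, which encodes thrombospondin 1. On chromosome 1, 4 members lay between 94990558 and 95502449. The left part of this stretch holds F3, which encodes tissue factor, the starter of blood clotting. The member joining 95328461 to 95331940 with 95500240 to 95502449 had no anchor there. Within the whole stretch the senescent library listed 139 contacts and the control library 24, against 149258 and 12194 over all autosomes. The 4 members of this stretch had 4 senescent counterparts, and the 7 members at VIM had 7, in a stretch with 37 senescent contacts.

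Another group lay at genes for transcription factors and chromatin proteins. On chromosome 12 a member joined 66024184 to 66026774 with 66265863 to 66275345, in HMGA2, over 245 kb, with 2 PETs in each library; HMGA2 encodes an AT-hook chromatin protein known to gather in heterochromatin foci of senescent fibroblasts. On chromosome 17 the member from 70121199 to 70123598, at the end of SOX9, to 70334501 to 70336671 also had 2 PETs in each library, over 213 kb. SOX9 encodes a factor of cartilage and other lineages whose gene lies in a large gene-poor region. On chromosome 10, 5 members lay between 63657884 and 64012408 at ARID5B, a DNA-binding protein gene, with 6 control PETs and 6 senescent PETs. The anchor 63802059 to 63807288 in ARID5B had the most member partners of any anchor, 4, among 9 control contacts in all. Around KLF6, a zinc finger factor induced by growth signals and injury, 4 joined members ran from 3509316 to 4815827 of chromosome 10. They include the fifth longest member, 991 kb, and had 4 control PETs and 5 senescent PETs.

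Further members lay at or near JUN, TGIF1, MEIS1 and the HOXA genes. The stretch of chromosome 1 from 59219775 to 60171141 held 5 members with 5 control PETs and 6 senescent PETs. Its left part holds JUN, the gene of an AP-1 subunit, and not every member had an anchor beside it. The whole stretch held 11 control contacts and 181 senescent contacts, against 12194 and 149258 over all autosomes. Each member needs a control contact, so these counts are tied to the choice of the stretch. At TGIF1, a repressor of TGF-beta signalling on chromosome 18, 4 members between 3268447 and 3596613 had 4 control PETs and 7 senescent PETs. A member at MEIS1 on chromosome 2, from 66673971 to 66676826 and 66795638 to 66801225, had 1 control PET and 3 senescent PETs. MEIS1 encodes a partner of HOX proteins, and 2 members on chromosome 7 joined anchors at 27144303 to 27148117 and 27172110 to 27178972, in the HOXA cluster, with anchors 196 and 279 kb away on the SKAP2 side. Both matched through the same senescent anchor, from 27134513 to 27197775. At 63.3 kb it was the widest anchor among all senescent contacts of at least 100 kb, so these 2 matches place the HOXA end only broadly.

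Some members lay at genes of signalling and transport. On chromosome 12, 7 members lay between 76028332 and 76420886, with 9 PETs in each library; the right end lies at PHLDA1, a gene induced by growth factor signalling. The anchor 76413382 to 76417018, beside PHLDA1, had 3 member partners at 159, 195 and 297 kb. On chromosome 17, 4 members between 64268312 and 64565254 lay at PRKCA, which encodes protein kinase C alpha, with 7 control PETs and 3 senescent PETs. On chromosome 5, 3 members lay between DUSP1, which encodes a phosphatase that switches off MAP kinases, and ERGIC1. Among these 3, the contact from 172221370 to 172223373 to 172335958 to 172339453 had 1 control PET and 5 senescent PETs. On chromosome 12, 5 joined members lay between 46777217 and 47310076, near the amino acid transporter genes SLC38A2 and SLC38A4, with 6 PETs in each library. Within this locus the control library listed more, 26 contacts against 16. The wider stretch that holds it, from 46749536 to 48276664 with 6 members, had 47 control contacts and 92 senescent contacts.

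The remaining anchors and contacts that ranked high did not share a gene group. The anchors with 3 member partners included 56724345 to 56730199 on chromosome 6, in DST (dystonin, a linker of cytoskeletal filaments), 36671849 to 36681593 on chromosome 2, in CRIM1 (a membrane protein that binds bone morphogenetic proteins), and 16722212 to 16727765 on chromosome 6, in ATXN1 (ataxin 1). At DST the stretch of 3 members held 59 control contacts and 21 senescent contacts. On chromosome 17 the contact from 8021760 to 8024429 to 8123474 to 8125658, across PER1 and AURKB, had 1 control PET and 6 senescent PETs, and no other control contact lay inside it. On chromosome 14 a member of 126 kb from 50869647 to 50999784 had 4 control PETs and 1 senescent PET. A member of 185 kb on chromosome 1 from 144929008 to 145117877 had the same counts. That part of chromosome 1 holds near-identical duplicated segments, in which the placement of reads is uncertain.

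The longest members were single PETs in each library. The longest spanned 1947 kb on chromosome 1, between 198460112 to 198462979 and 200407088 to 200409115, across NR5A2. The next spanned 1521 kb on chromosome 12, from 46749536 to 46759761, at SLC38A2, to 48274514 to 48276664, in VDR, the gene of the vitamin D receptor. On chromosome 7 a member of 1215 kb joined 46424540 to 46428121 with 47639933 to 47642521, beside TNS3, which encodes a tensin of focal adhesions. On chromosome 11 a member of 1119 kb joined 35372165 to 35374415, in the glutamate transporter gene SLC1A2, with 36490343 to 36493303. The stretches of the first and the last held 100 and 156 other senescent contacts. These 4 were all the members beyond 1000 kb, out of 679 control contacts, and each rests on a single read pair in each library.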

How the data were processed

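The authors deposited 1 table of contacts per library, with no header. Its 7th column holds whole numbers, read here as the count of PETs deposited for each contact. The last column was taken as the authors' deposited p-value or q-value; which of these was not stated, and it lay under 0.05 for every long control contact. The submitters' processing notes name HiC-Pro 3.1.0 and hg19. The sources used here do not give the loop caller, the origin of the anchors or any removal of duplicates. Listed contacts are part of each library: autosomal totals of 14343 control and 182707 senescent PETs are not depths, and PCR copies would make intervals too narrow.

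Contacts were matched in scipy 1.17.1, pandas 2.3.3 and numpy 2.4.6 under Python 3.11.15; the matching was tested on simulated data. Members and comparisons were chosen with earlier results of these data known. Named contacts follow a rule (10 with the most PETs, 5 longest, those nearest 100 kb, 5 anchors and 5 loci with the most members). All other contacts, anchors and stretches named, and the 3 promoters, were chosen after their values were seen. The rule allowed gene names only with an hg19 table, which was not used here; the names given depart from it and were not checked, and planned gene lists were not counted. Comparisons by listing of both anchors, width class, contacts inside and chromosome were also added. Promoter windows are from RefSeq (GRCh38.p14).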

Additional observations from a re-analysis of the deposited data

How the results depend on the processing

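A limit of 0.05 on deposited values could change nothing, because all 333 kept contacts, their counterparts and the other long control contacts were under it. The 333 kept contacts became 316 when anchors had to overlap by at least 50% of the shorter, 324 as merged anchor pairs and 334 with chromosome X. They became 707 (12.4%) with anchors within 5 kb, 632 from 50 kb, 151 from 200 kb, 36 with at least 2 control PETs and 59 with at least 2 senescent PETs in 1 contact; the matched senescent contacts of at least 100 kb, 323 at first, became 754, 604, 150, 37 and 54. The median span moved to 105 kb from 50 kb, 302 kb from 200 kb and 163 kb with at least 2 senescent PETs. The share with at least 2 control PETs moved to 7.50% within 5 kb, 6.62% from 200 kb and 15.3% with at least 2 senescent PETs. The PET ratio moved to 0.617 with at least 2 control PETs and 1.84 with at least 2 senescent PETs, each a selection on 1 side of the ratio. Median anchor width moved to 4.28 kb with at least 2 control PETs and 5.91 kb as merged anchors, which are wider by construction. With both control anchors no wider than 2.71 kb, the shares kept became 7.93%, 2.94% and 0% in the classes from 100, 200 and 1000 kb; the last holds 122 contacts. The other 41 recomputed values stayed within the interval or 1.5 times, among them those with deposited values under 0.05, which could not move. The share with 2 control PETs has no value when 2 are required. No paired analysis was possible because each group has 1 library. With 1 PET behind most contacts, single members are near the limit of what the tables can hold.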
